A study of Mus musculus with 15 samples.

Results

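The genes described here are 10 transcription factors and chromatin regulators of early blood cells: Tal1, Lmo2, Gata2, Gfi1b, Runx1, Erg, Etv6, Bmi1, Zfp521 and Cebpa. They were chosen by name, and every probe set (a group of short array probes read as 1 value) that the platform annotation gives to exactly 1 of these symbols was kept. That gave 20 of the 45101 probe sets on the array: 6 for Runx1, 2 each for Erg, Gata2, Etv6, Bmi1 and Zfp521, and 1 each for Tal1, Lmo2, Gfi1b and Cebpa. None of the 932 probe sets with several symbols held one of these genes.

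Lin- Sca-1+ Kit+ (LSK) bone marrow cells, the fraction that holds haematopoietic stem cells and multipotent progenitors, came from C57BL6 mice that differed in Apc, a scaffold protein of the complex that marks β-catenin for destruction. The tested genotypes were 15lox/15lox, 15lox/1638N and 15lox/1572T, with 3 arrays each, and the control genotype was wt/wt, of which arrays 4 to 6 were used. Cells of every genotype, wt/wt included, were infected in culture with an MSCV-Cre-IRES-GFP virus, grown in Stemspan medium with mFlt3L, mTpo and mSCF, and sorted for GFP, so Cre and culture were common to all groups. RNA from more than 10000 cells per sample was amplified before hybridisation. The labels used here do not give the animals' age or say whether the arrays of a genotype came from separate mice, so p-values here reflect variation among these arrays, which may be technical.

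In blood, Tal1 (a basic helix-loop-helix protein that binds E-box words) and Gata2 (a zinc finger protein that binds Gata words) meet on DNA through the bridging protein Lmo2, often beside Runx1, Erg and Gfi1b. These factors help to specify blood in the embryo and to keep adult stem cells, and several of them are found at leukaemia breakpoints. Bmi1, a Polycomb protein, keeps stem cells self-renewing in part by silencing the Cdkn2a locus. Cebpa drives the step towards granulocytes and monocytes.

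The targeted gene was examined first, over its 4 probe sets. At adjusted p under 0.05 against wt/wt, 3 of them fell and 1 rose in 15lox/15lox, 2 fell in 15lox/1638N, and 0 passed in 15lox/1572T. The 15lox/1572T differences were -0.93, -0.77 and -0.75 at those that fell in 15lox/15lox and 0.52 at the one that rose. The files used here do not say which exons these probe sets read. Apc 1420956_at, the one with the largest change, averaged 5.79 ± 0.27 in 15lox/15lox cells, 8.55 ± 0.11 in 15lox/1638N cells, 8.82 ± 0.17 in 15lox/1572T cells and 9.75 ± 0.16 in wt/wt cells (deposited log2 signal, SD, n = 3 each), with limma adjusted p = 8.9e-07, 0.0030 and 0.103 for the mutants in that order. Apc 1435543_at, the one that rose, averaged 10.45 ± 0.22 in 15lox/15lox and 9.68 ± 0.15 in wt/wt (adjusted p = 0.0133). Axin2, a target of β-catenin signalling, averaged 12.17 ± 0.20, 11.26 ± 0.22, 8.61 ± 0.83 and 7.40 ± 0.16 in the same order, with limma adjusted p = 1.9e-05 for 15lox/15lox, 2.3e-04 for 15lox/1638N and 0.447 for 15lox/1572T against wt/wt. The LSK markers Kit, Cd34, Flt3 and Ptprc lay at or above the 86.7th percentile of probe sets by mean signal, and none of the LSK markers measured differed between a mutant genotype and wt/wt at adjusted p under 0.05; Ly6a, which encodes Sca-1, was not analysed here. Xist, expressed from the inactive X chromosome, was high on 2 of the 3 15lox/15lox arrays, 1 of 3 in each of the other mutants and 0 of 3 wt/wt arrays, so the groups differed in Xist as well as in Apc. The other wt/wt arrays, 1 to 3, had means within 0.05 of those of arrays 4 to 6 at 96.8% of probe sets, against 20.3% to 25.7% for other pairs of groups, and were therefore not treated as further replicates.

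RefSeq promoter sequences (GRCm38.p6) were found for 8 of the 10 genes in 13 windows of 250 bases upstream of annotated transcript starts. They are shown because the factors are known to bind each other's regulatory DNA, so the words that their families read can be seen where they occur. The word searched for zinc finger factors of the Gata family was AGATAA. The E-box of Tal1 and its partners was searched as CANNTG. Runx factors were given the word TGTGGT. For Ets factors such as Erg and Etv6 the word was CAGGAA. For Tcf/Lef factors, the partners of β-catenin, it was CTTTGAT, and all words were searched on both strands. In the windows below, written 5′ to 3′ on the strand of the gene, capitals mark any of these words or their reverse complements. The Tal1 window is chr4:115056176-115056425 (plus strand), that of Runx1 chr16:92826075-92826324 (minus strand), that of Erg chr16:95459349-95459598 (minus strand), that of Bmi1 chr2:18676768-18677017 (plus strand) and that of Gata2 chr6:88193641-88193890 (plus strand).
Tal1: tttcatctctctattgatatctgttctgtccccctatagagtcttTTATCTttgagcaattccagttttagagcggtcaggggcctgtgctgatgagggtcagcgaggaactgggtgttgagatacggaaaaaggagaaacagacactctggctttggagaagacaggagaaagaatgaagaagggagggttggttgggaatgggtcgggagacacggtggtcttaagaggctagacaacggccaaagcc
Runx1: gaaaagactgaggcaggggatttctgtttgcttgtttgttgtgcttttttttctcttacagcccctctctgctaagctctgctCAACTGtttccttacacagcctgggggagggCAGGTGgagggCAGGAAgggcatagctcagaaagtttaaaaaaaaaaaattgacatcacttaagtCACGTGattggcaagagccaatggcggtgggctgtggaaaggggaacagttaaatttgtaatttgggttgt
Erg: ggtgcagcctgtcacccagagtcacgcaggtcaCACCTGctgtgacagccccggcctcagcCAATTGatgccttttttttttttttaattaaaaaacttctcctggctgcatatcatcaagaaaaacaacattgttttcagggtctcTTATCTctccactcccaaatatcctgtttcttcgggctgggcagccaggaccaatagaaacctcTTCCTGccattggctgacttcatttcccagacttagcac
Bmi1: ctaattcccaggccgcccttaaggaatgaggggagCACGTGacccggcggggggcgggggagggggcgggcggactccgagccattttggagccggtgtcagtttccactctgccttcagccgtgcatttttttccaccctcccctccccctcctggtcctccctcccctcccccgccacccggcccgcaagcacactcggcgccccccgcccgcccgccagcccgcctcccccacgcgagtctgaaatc
Gata2: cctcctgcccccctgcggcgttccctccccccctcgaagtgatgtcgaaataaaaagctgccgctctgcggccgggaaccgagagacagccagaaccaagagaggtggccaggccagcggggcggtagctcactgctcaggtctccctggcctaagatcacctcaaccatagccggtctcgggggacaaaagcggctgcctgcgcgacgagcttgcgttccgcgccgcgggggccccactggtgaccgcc
Of genes with several listed starts 1 window each is shown, and the windows of Tal1, Runx1, Erg and Gata2 that are not printed hold none of the words. The Tal1 window printed holds 1 Gata word, written TTATCT on this strand. The Runx1 window printed holds 3 E-boxes and, between them, 1 Ets word. The Erg window printed holds 2 E-boxes, 1 Gata word and, nearest to the transcript start, 1 Ets word that is written TTCCTG on this strand. Bmi1 has the E-box CACGTG, and the Gata2 window printed, that of its first start, holds none either. Over all 13 windows, Gata words were present in 2, E-boxes in 4, Ets words in 3, and Runx and Tcf/Lef words in 0. Among the 32851 promoter windows of the mouse table, 9.99% held AGATAA, 66.2% an E-box, 14.0% TGTGGT, 25.7% CAGGAA and 3.21% CTTTGAT. These matches describe letters only, and a window without one says nothing about binding.

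None of the 20 probe sets differed between genotypes at an adjusted p under 0.05 in limma, with Benjamini-Hochberg adjustment over all 45101 probe sets. Set against wt/wt, 15lox/15lox had a count of 0 of 20, where 1.49% of all probe sets were called. In 15lox/1638N it was 0 of 20, against 1.38% of all probe sets, and in 15lox/1572T 0 of 20, against 0.0288%. The comparisons among mutants also gave 0 of 20 each: 15lox/15lox against 15lox/1638N, where 0.186% of all probe sets were called, 15lox/15lox against 15lox/1572T, where 1.00% were, and 15lox/1638N against 15lox/1572T, where 0.171% were. With background shares this low, a count of 0 does not set these genes apart from the rest of the array.

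The intervals describe how precisely these differences were estimated, given the variation among these arrays. All 60 intervals (95%, not adjusted for the number of tests) of a mutant against wt/wt lay within a 2-fold change in either direction, and of the 120 intervals over all 6 comparisons 118 did and 80 lay within 1.5-fold. Both exceptions were Erg 1425370_a_at set against 15lox/1572T, with intervals of -1.05 to 0.30 for 15lox/15lox and -1.05 to 0.31 for 15lox/1638N. The largest fitted difference of any member was 0.55 on the log2 scale. Within genotypes the pooled SD of the probe sets ran from 0.07 to 0.43 with a median of 0.20, beside a median of 0.17 for all probe sets. By mean signal they lay between the 49.0th and 99.1st percentiles of the array, so none was in the dim range under the 30th percentile where background adds most.

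**Figure D1:**
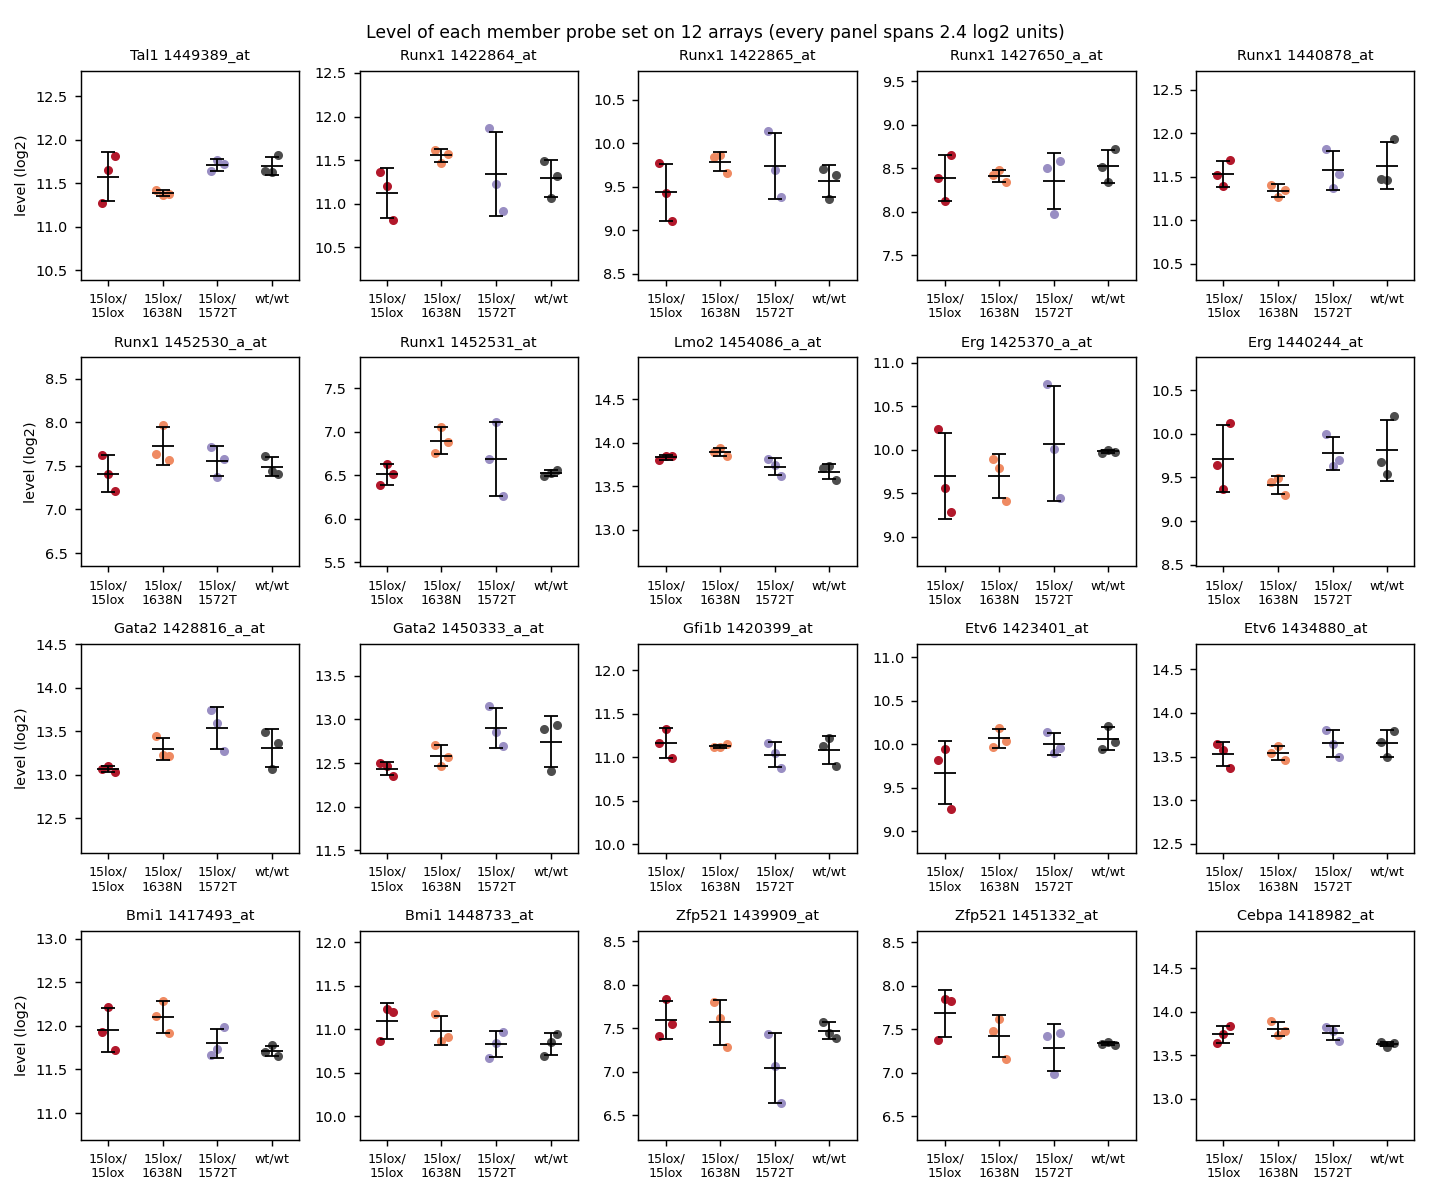
Deposited log2 level of each of the 20 probe sets on the 12 arrays, by Apc genotype; points are arrays, and the bar and whiskers are the mean and SD of 3 arrays. Every panel spans the same width on the log2 axis, and the largest gap between genotype means is 0.55, for Zfp521 1439909_at.

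Before adjustment, 1 of 20 probe sets had p under 0.05 in 15lox/15lox against wt/wt, 3 of 20 in 15lox/1638N and 0 of 20 in 15lox/1572T, against 10.2%, 16.0% and 6.84% of all probe sets. Among mutants, 3 of 20 had such a p in 15lox/15lox against 15lox/1638N (8.67% of all probe sets), 4 of 20 in 15lox/15lox against 15lox/1572T (8.03%) and 2 of 20 in 15lox/1638N against 15lox/1572T (7.72%). The median log2 fold change of the 20 from wt/wt was -0.09 in 15lox/15lox, 0.07 in 15lox/1638N and 0.03 in 15lox/1572T, and that of all probe sets was -0.03, 0.00 and -0.01. The median size of the change, sign ignored, was 0.13, 0.20 and 0.07 for the members and 0.12, 0.14 and 0.11 for all probe sets. The 3 mutants share the same wt/wt arrays, so their differences from wt/wt are not independent of each other.

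**Figure D2:**
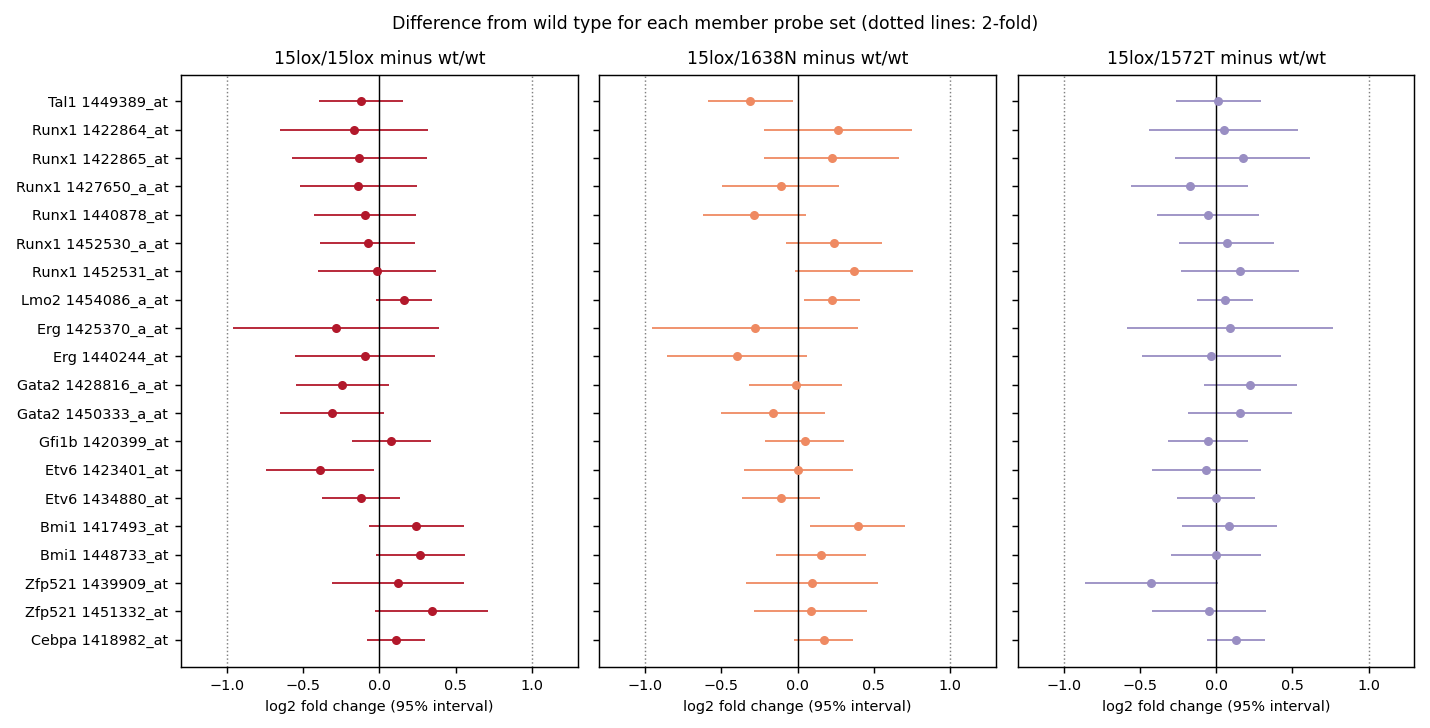
Log2 fold change of each probe set from wt/wt in 15lox/15lox, 15lox/1638N and 15lox/1572T cells, with the 95% interval of the limma estimate. Every interval lies between the dotted lines at a 2-fold change, and none of the 60 differences passed the adjusted threshold.

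The DNA-binding and bridging proteins of the Tal1 complex are described next. Tal1 1449389_at read 11.27, 11.65 and 11.81 in 15lox/15lox cells, 11.42, 11.36 and 11.38 in 15lox/1638N cells, 11.64, 11.77 and 11.72 in 15lox/1572T cells, and 11.64, 11.63 and 11.82 in wt/wt cells. The 3 values of 15lox/1638N lay close together and below every wt/wt and 15lox/1572T value, while array 1 of 15lox/15lox was lower still. The difference of 15lox/1638N from wt/wt was -0.31 ± 0.13 (log2 fold change ± SE, limma adjusted p = 0.261), with an interval of -0.59 to -0.03. Tal1 differed from wt/wt by -0.12 in 15lox/15lox and 0.01 in 15lox/1572T.

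Lmo2, which binds no DNA itself and holds Tal1 and Gata factors together, differed in the other direction by a small amount. Lmo2 1454086_a_at read 13.80, 13.85 and 13.85 in 15lox/15lox, 13.90, 13.94 and 13.85 in 15lox/1638N, 13.81, 13.75 and 13.62 in 15lox/1572T, and 13.71, 13.73 and 13.57 in wt/wt. All arrays of 15lox/15lox and 15lox/1638N lay above all wt/wt arrays, and those of 15lox/1572T overlapped them. The fitted differences were 0.16 (adjusted p = 0.568), 0.23 ± 0.08 (adjusted p = 0.221, interval 0.04 to 0.41) and 0.06 in 15lox/15lox, 15lox/1638N and 15lox/1572T against wt/wt. The signal was at the 99.1st percentile of the array.

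Gata2, which maintains stem cells and is also high in mast cells and early megakaryocytes, was read by a pair of probe sets. Gata2 1428816_a_at read 13.07, 13.10 and 13.03 in 15lox/15lox, 13.44, 13.23 and 13.22 in 15lox/1638N, 13.74, 13.59 and 13.27 in 15lox/1572T, and 13.49, 13.07 and 13.37 in wt/wt. Gata2 1450333_a_at read 12.50, 12.46 and 12.35 in 15lox/15lox, 12.71, 12.47 and 12.57 in 15lox/1638N, 13.15, 12.86 and 12.69 in 15lox/1572T, and 12.89, 12.41 and 12.94 in wt/wt. Both gave the same order of means, highest in 15lox/1572T, then wt/wt, 15lox/1638N and 15lox/15lox. Against wt/wt the 15lox/15lox difference was -0.24 and -0.31, and the 15lox/1572T difference 0.22 and 0.15. Between the mutants, every 15lox/15lox value lay below every 15lox/1572T value at both, with differences of -0.47 ± 0.14 (adjusted p = 0.268, interval -0.77 to -0.16) and -0.46 ± 0.15 (adjusted p = 0.382). The first of these had the lowest unadjusted p of the 120 member tests, 0.0063, and still missed the threshold over all probe sets.

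Gfi1b, a zinc finger transcriptional repressor that acts in red cell and platelet development, was the flattest of these. Gfi1b 1420399_at read 11.17, 11.33 and 10.99 in 15lox/15lox, 11.12, 11.12 and 11.15 in 15lox/1638N, 11.16, 11.05 and 10.88 in 15lox/1572T, and 11.13, 11.22 and 10.90 in wt/wt. The 4 genotypes overlapped, and the differences from wt/wt were 0.08, 0.05 and -0.05.

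Marker genes of the mature cells that also use Gata2 were set beside it, because bulk RNA cannot separate fewer cells of a type from less RNA per cell. The mean log2 level of 8 mast cell and basophil genes, relative to the wt/wt mean, ran from -0.37 to 0.23 in 15lox/15lox, -0.49 to 0.03 in 15lox/1638N, 0.33 to 0.64 in 15lox/1572T and -0.35 to 0.34 in wt/wt. That of 6 megakaryocyte genes ran from -0.29 to 0.23 in 15lox/15lox, -0.64 to -0.21 in 15lox/1638N, 0.04 to 0.41 in 15lox/1572T and -0.27 to 0.14 in wt/wt. That of 6 erythroid genes ran from -0.24 to 0.07, -0.27 to -0.02, 0.10 to 0.39 and -0.20 to 0.16 over the same groups. The arrays of 15lox/1572T thus sat above those of both other mutants for the mast cell and erythroid genes, as for Gata2 they sat above those of 15lox/15lox. For the megakaryocyte genes they sat above those of 15lox/1638N but overlapped those of 15lox/15lox. None of the 8 mast cell genes was called between 15lox/15lox and 15lox/1572T, where 1.35% of genes were. Mcpt8 and Cpa3 of mast cells and Pf4 of megakaryocytes had strong signals (97.6th, 87.5th and 98.9th percentiles), while Mcpt4, Hba-a1 and Alas2 were under the 30th percentile. Their part in the Gata2 values was not tested.

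**Figure D3:**
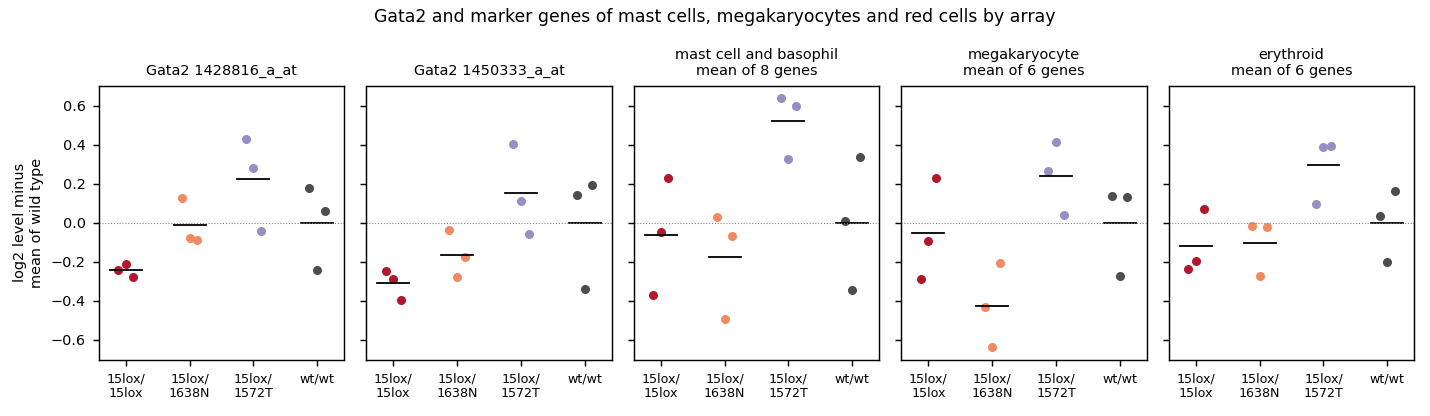
Log2 level minus the wt/wt mean for both Gata2 probe sets and for the mean of marker genes of mast cells and basophils, megakaryocytes and erythroid cells; points are arrays and lines are means of 3 arrays. For the 8 mast cell and basophil genes the 15lox/1572T arrays lie at 0.33 to 0.64, against -0.37 to 0.23 in 15lox/15lox.

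Runx1, needed for the first blood stem cells of the embryo, was covered by 6 probe sets that differed in direction. All 6 differences of 15lox/15lox from wt/wt were negative but small, -0.17 to -0.02. In 15lox/1638N 4 were positive and 2 negative, from -0.28 at 1440878_at (adjusted p = 0.396) to 0.37 at 1452531_at (adjusted p = 0.334). In 15lox/1572T 4 were positive and 2 negative, from -0.17 to 0.18. Since the 6 probe sets read one gene and share its RNA, they are not separate tests of it.

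Among the Runx1 probe sets, 1422864_at had the widest spread. It read 11.36, 11.20 and 10.81 in 15lox/15lox, 11.62, 11.47 and 11.57 in 15lox/1638N, 11.87, 11.23 and 10.92 in 15lox/1572T, and 11.49, 11.06 and 11.32 in wt/wt. Arrays 3 of 15lox/15lox and 15lox/1572T were the lowest, and the spread within 15lox/1572T (SD 0.48) was wider than any difference between means (at most 0.43). The dimmer Runx1 1452531_at, at the 49.0th percentile, read 6.38, 6.62 and 6.52 in 15lox/15lox, 6.75, 7.06 and 6.88 in 15lox/1638N, 6.68, 7.11 and 6.26 in 15lox/1572T, and 6.49, 6.53 and 6.56 in wt/wt. Here every 15lox/1638N value lay above every 15lox/15lox and wt/wt value. For 1422864_at, 1422865_at, 1452530_a_at and 1452531_at, the order of means was 15lox/1638N, 15lox/1572T, wt/wt and 15lox/15lox. For 1440878_at and 1427650_a_at wt/wt was highest.

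Erg, an Ets factor of stem cells and megakaryocytes, was the most variable of the members. Erg 1425370_a_at read 10.24, 9.56 and 9.28 in 15lox/15lox, 9.90, 9.79 and 9.42 in 15lox/1638N, 10.76, 10.01 and 9.44 in 15lox/1572T, and 9.97, 10.00 and 9.98 in wt/wt. The spread within 15lox/15lox (SD 0.49) and 15lox/1572T (SD 0.66) was wider than any difference between means, and wt/wt had almost no spread (SD 0.02). Erg 1440244_at read 9.65, 9.37 and 10.13 in 15lox/15lox, 9.45, 9.49 and 9.30 in 15lox/1638N, 10.00, 9.64 and 9.70 in 15lox/1572T, and 9.68, 9.54 and 10.21 in wt/wt. At this probe set all 15lox/1638N values lay below all wt/wt values, with a difference of -0.40 ± 0.21 (adjusted p = 0.384). At 1425370_a_at the 15lox/1638N values also all lay below wt/wt, by -0.28 in the mean, while those of 15lox/15lox, at -0.29, overlapped it.

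Etv6, an Ets-family repressor that adult marrow stem cells need, also had a pair of probe sets. Etv6 1423401_at read 9.82, 9.95 and 9.26 in 15lox/15lox, 9.97, 10.19 and 10.04 in 15lox/1638N, 10.14, 9.90 and 9.96 in 15lox/1572T, and 9.95, 10.21 and 10.03 in wt/wt. Array 3 of 15lox/15lox was well below all others, and all 15lox/15lox arrays lay below all wt/wt arrays, the highest of them by less than the rounding of these values. The 15lox/15lox difference from wt/wt was -0.39 ± 0.16 (adjusted p = 0.435, interval -0.74 to -0.03), against 0.00 in 15lox/1638N and -0.06 in 15lox/1572T. The stronger probe set 1434880_at read 13.64, 13.58 and 13.37 in 15lox/15lox, 13.54, 13.62 and 13.46 in 15lox/1638N, 13.81, 13.64 and 13.50 in 15lox/1572T, and 13.67, 13.49 and 13.79 in wt/wt. Its values overlapped in all genotypes, with differences from wt/wt of -0.12, -0.11 and 0.00.

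Bmi1 was read by a pair of probe sets that were on average at or above wt/wt in each mutant. Bmi1 1417493_at read 11.93, 12.22 and 11.72 in 15lox/15lox, 12.11, 12.29 and 11.92 in 15lox/1638N, 11.67, 11.74 and 11.99 in 15lox/1572T, and 11.70, 11.78 and 11.66 in wt/wt. All 15lox/1638N values lay above all wt/wt values, and those of the other mutants overlapped wt/wt. The 15lox/1638N difference was 0.39 ± 0.14, a 1.31-fold level (adjusted p = 0.211, interval 0.08 to 0.71). With wt/wt arrays 1 to 3 added to the fit, Bmi1 1417493_at and Lmo2 in 15lox/1638N were called, at adjusted p = 0.0381 and 0.0323. In that fit 3912 of all 45101 probe sets were called. At both probe sets the added arrays had the same mean as arrays 4 to 6. They raised the number of arrays without moving the wt/wt mean, so these calls are no further evidence. Without them, the Bmi1 1417493_at differences of 15lox/15lox and 15lox/1572T from wt/wt were 0.24 and 0.09. Bmi1 1448733_at read 10.86, 11.23 and 11.20 in 15lox/15lox, 11.17, 10.86 and 10.91 in 15lox/1638N, 10.67, 10.84 and 10.97 in 15lox/1572T, and 10.69, 10.85 and 10.94 in wt/wt. At this probe set the difference was 0.27 in 15lox/15lox, 0.15 in 15lox/1638N and 0.00 in 15lox/1572T, and all mutants overlapped wt/wt.

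Zfp521, a zinc finger cofactor that holds back B cell and red cell differentiation, lay at the 55.7th and 55.8th percentiles of signal. Zfp521 1439909_at read 7.41, 7.84 and 7.55 in 15lox/15lox, 7.80, 7.61 and 7.29 in 15lox/1638N, 7.44, 7.07 and 6.64 in 15lox/1572T, and 7.58, 7.45 and 7.39 in wt/wt. The lowest values were arrays 2 and 3 of 15lox/1572T, and array 1 of that genotype lay within the wt/wt range. The difference was -0.42 in 15lox/1572T against wt/wt (adjusted p = 0.735), 0.55 ± 0.20 in 15lox/15lox against 15lox/1572T (adjusted p = 0.446) and 0.52 in 15lox/1638N against 15lox/1572T (adjusted p = 0.596). Zfp521 1451332_at read 7.37, 7.85 and 7.82 in 15lox/15lox, 7.48, 7.62 and 7.16 in 15lox/1638N, 7.43, 6.99 and 7.46 in 15lox/1572T, and 7.34, 7.35 and 7.33 in wt/wt. All 15lox/15lox values lay above all wt/wt values there (0.34, adjusted p = 0.543). Both probe sets gave the order 15lox/15lox, 15lox/1638N, wt/wt and 15lox/1572T.

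Cebpa, the myeloid factor among the members, lay at the 99.0th percentile of signal. Cebpa 1418982_at read 13.64, 13.74 and 13.84 in 15lox/15lox, 13.89, 13.73 and 13.78 in 15lox/1638N, 13.83, 13.78 and 13.67 in 15lox/1572T, and 13.65, 13.60 and 13.64 in wt/wt. The wt/wt arrays were the lowest as a group, and the 15lox/1638N and 15lox/1572T arrays all lay above them. The differences were small, at 0.11 in 15lox/15lox, 0.17 in 15lox/1638N (adjusted p = 0.371) and 0.13 in 15lox/1572T. The summed log2 level of 6 neutrophil and monocyte markers overlapped between groups, at 64.4 to 68.8 in 15lox/15lox, 64.5 to 66.6 in 15lox/1638N, 65.7 to 68.4 in 15lox/1572T and 66.5 to 66.7 in wt/wt, with 0 of 6 called.

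Counted over the 20 probe sets, 3 in 15lox/15lox, 8 in 15lox/1638N and 1 in 15lox/1572T had no overlap with the wt/wt arrays. The same was true of 17.4%, 26.5% and 12.6% of all probe sets. The 3 in 15lox/15lox were Lmo2, Etv6 1423401_at and Zfp521 1451332_at, and the 1 in 15lox/1572T was Cebpa. The 8 in 15lox/1638N belonged to Tal1, Lmo2, Cebpa, Bmi1 1417493_at, both Erg probe sets, and Runx1 1440878_at and 1452531_at, of which 4 were higher and 4 lower than wt/wt. No neighbours in any of the orders of genotype means given above were told apart at adjusted p under 0.05.

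Direction was not common to the members either. In 15lox/15lox 7 of 20 differences from wt/wt were positive and 13 negative, in 15lox/1638N 12 and 8, and in 15lox/1572T 11 and 7 with 2 at zero. Within the Tal1 complex, 15lox/1638N had Lmo2 above and Tal1 below wt/wt in all 3 arrays while Gata2 and Gfi1b overlapped it.

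Genes that work with the members were counted from 5 lists, with 1 probe set per gene. The lists are Tal1 and Lmo2 partners, the Ets family, Polycomb, Gfi1b corepressors with genes linked to Gfi1b or Zfp521, and the Cebp family with its regulators and targets. Of 18194 genes, 2.11% were called in 15lox/15lox, 2.04% in 15lox/1638N and 0.0495% in 15lox/1572T against wt/wt. Among 20 Tal1 and Lmo2 partners 0 were called against wt/wt in any mutant when p-values were adjusted over all probe sets, and their median log2 fold changes were -0.14, -0.10 and -0.05, beside -0.05, -0.03 and -0.03 for all genes. Nearest to the threshold were Tcf12, an E protein that pairs with Tal1, in 15lox/15lox (0.44, adjusted p = 0.053), Gata3, the Gata-family factor of T cells, in 15lox/15lox (1.21, adjusted p = 0.068) and Nfe2, a factor of red cells and platelets, in 15lox/1638N (-0.48, adjusted p = 0.0962). Tcf12 and Gata3 passed in 15lox/15lox when the adjustment ran over 1 probe set per gene (adjusted p = 0.0314 and 0.0408). They also passed with trend and robust eBayes (0.0388 and 0.0486), so the count of 0 depends on these settings. Both passed with all 15 arrays too (0.0050 and 0.0039), a fit that holds the wt/wt arrays not treated as further replicates. With Xist-high or Xist-low as a covariate they were further from passing (adjusted p = 0.289 and 0.345). Of the other 4 Tcf12 probe sets, 3 were higher in 15lox/15lox by 0.62, 0.66 and 1.11 and passed (adjusted p = 0.0304, 0.0112 and 0.0093), and the fourth was at 0.78 without passing (adjusted p = 0.503). Of 5 T cell markers, 1 was called against wt/wt: Cd3g, named after its values were seen, was lower in 15lox/15lox, 15lox/1638N and 15lox/1572T than in wt/wt, at -1.28, -1.45 and -1.27 (adjusted p = 2.3e-04, 2.7e-04 and 0.0059), at the 27.4th percentile of signal. The part of T cells in the Gata3 values was not tested. Among 18 Polycomb genes 0 were called as well, with medians of -0.09, -0.05 and -0.11. Runx2 and Cebpe were not analysed here. The Polycomb genes nearest to the threshold were Scmh1 in 15lox/15lox (0.57, adjusted p = 0.083) and, in 15lox/1638N, Cbx7 (-0.78, adjusted p = 0.116) and Ring1 (-0.61, adjusted p = 0.131).

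Members of the members' own families did pass. Of 13 Ets genes, 2 rose in 15lox/15lox, 1 rose in 15lox/1638N and 0 were called in 15lox/1572T, and the medians of the list were -0.03, 0.09 and -0.05. Etv5, an Ets activator downstream of growth factor signalling, rose by 1.38 ± 0.21 in 15lox/15lox (limma adjusted p = 0.0051), and stayed called with any single array left out. In 15lox/1638N it rose by 1.02 ± 0.21 (adjusted p = 0.0389). That call was lost in 8 of the 12 fits that each left out 1 array. The other Etv5 probe sets were also higher in 15lox/15lox, by 1.203 and 1.496, without passing (adjusted p = 0.1203 and 0.0703). In 15lox/1638N they were higher by 1.038 and 1.318, again without passing (adjusted p = 0.1434 and 0.1022). Ets2 rose by 0.44 ± 0.08 in 15lox/15lox (adjusted p = 0.0242), but was lost without array 1 or 2 of 15lox/15lox or any wt/wt array, and of its other probe sets one read -0.01 and one 0.68 (adjusted p = 0.0367). Spib, an Ets factor of lymphoid cells, was lower than wt/wt on every mutant array, at -1.99, -2.28 and -1.99, without passing (adjusted p = 0.193, 0.0962 and 0.499).

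The list of Gfi1b corepressors also holds Ebf1 and Zfp423, which are linked to Zfp521. Of its 9 genes, 1 fell in 15lox/15lox and in 15lox/1638N and 0 were called in 15lox/1572T, with medians of -0.04, -0.02 and -0.06. The gene that fell was no corepressor of Gfi1b but Ebf1, the B cell factor that Zfp521 is known to restrain. It was at -1.83 ± 0.37 (adjusted p = 0.0345, lost in 7 of 12 fits without 1 array) and -2.35 ± 0.37 (adjusted p = 0.0129, lost without array 2 of 15lox/1638N or array 5 or 6 of wt/wt). The means of this probe set, 5.00 in 15lox/15lox and 4.47 in 15lox/1638N, against 6.82 in wt/wt, lay in the mutants under 5.22, the level of the 30th percentile, where background adds to the signal, so the sizes are not exact folds. Its other 4 probe sets differed by -0.31 to -0.15 in 15lox/15lox and -0.29 to -0.01 in 15lox/1638N, and none of them passed. The summed log2 level of 5 B cell markers ran from 34.1 to 35.8 in 15lox/15lox, 34.3 to 35.7 in 15lox/1638N, 35.9 to 36.2 in 15lox/1572T and 36.1 to 36.5 in wt/wt. None of the 5 was called against wt/wt, Pax5 and Ms4a1 were under the 30th percentile, and the part of B cells in the Ebf1 and Spib values was not tested. Rcor1, the CoREST scaffold that Gfi1b recruits, differed by 0.29 in 15lox/15lox (adjusted p = 0.550), and Zfp423, the relative of Zfp521, by 0.36 in 15lox/1638N (adjusted p = 0.219; at the 29.4th percentile, where background adds to the signal). Of 12 genes of the Cebp list, 1 rose in 15lox/15lox, 1 rose in 15lox/1638N and 0 were called in 15lox/1572T, with medians of -0.09, -0.06 and 0.06. Trib1, a pseudokinase that directs C/EBPα to degradation, rose by 1.05 ± 0.18 in 15lox/15lox (adjusted p = 0.0134, lost without array 1 or 2 of 15lox/15lox or array 6 of wt/wt). Prtn3, a neutrophil granule protease, rose by 0.42 ± 0.09 in 15lox/1638N (adjusted p = 0.0460, lost in 9 of 12 such fits). Trib2, a relative of Trib1, was at 1.18 in 15lox/15lox (adjusted p = 0.0757), while its other probe sets were at 0.045 and 0.25 (adjusted p = 0.960 and 0.563). With Xist-high or Xist-low as a covariate, Etv5 in 15lox/15lox (adjusted p = 0.0285) and Ebf1 in 15lox/1638N (adjusted p = 0.0300) remained called and the other 5 of these calls did not, although their differences stayed in the same direction. Those were then 1.01 for Trib1, 0.46 for Ets2 and -1.55 for Ebf1 in 15lox/15lox, and 1.05 for Etv5 and 0.38 for Prtn3 in 15lox/1638N.

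**Figure D4:**
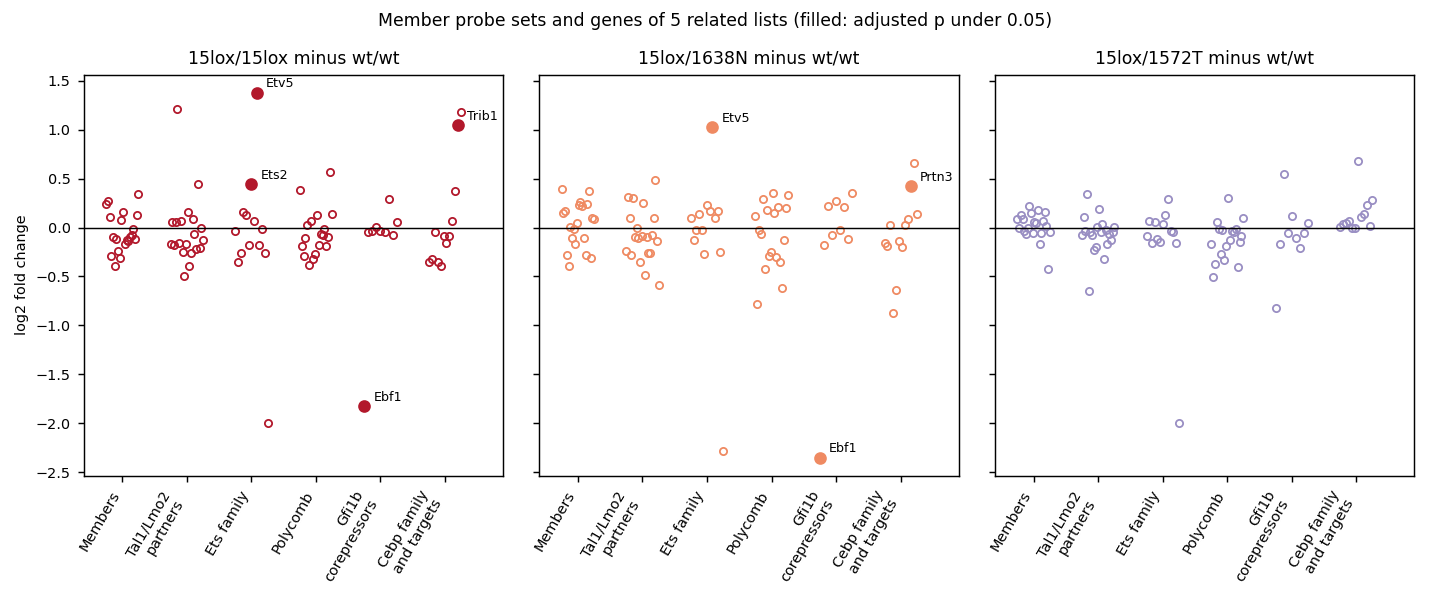
Log2 fold change from wt/wt of the 20 member probe sets and of the genes in 5 related lists (1 probe set per gene) for each mutant genotype; filled points have adjusted p under 0.05. The members hold 0 filled points in all 3 panels, and the filled points of the lists are Etv5, Ets2, Ebf1, Trib1 and Prtn3.

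Between 15lox/15lox and 15lox/1572T, where 1.35% of genes were called, 5 list genes differed beside uncalled members. Gata3 was higher in 15lox/15lox by 1.86 ± 0.28 (adjusted p = 0.0067) and stayed called with any single array left out, while Gata2 was at -0.47 and -0.46 in the same comparison. The summed log2 level of 5 T cell markers ran from 30.8 to 31.5 in 15lox/15lox and 28.9 to 32.1 in 15lox/1572T, with 0 of 5 called. Tcf12 was higher by 0.51 ± 0.10 (adjusted p = 0.0306, lost in 8 of 12 fits without 1 array), while Tal1 was at -0.13. The other Tcf12 probe sets were higher too, by 0.76 and 0.61 (adjusted p = 0.0105 and 0.0238) and, without passing, by 0.81 and 0.49 (0.0789 and 0.841). Etv5 was higher by 1.09 (adjusted p = 0.0283, lost in 6 of 12) while Erg was at -0.38 and -0.06 and Etv6 at -0.32 and -0.12, and Ets2 was higher by 0.41 (adjusted p = 0.0491, lost in 11 of 12). Trib1 was higher by 1.03 (adjusted p = 0.0178, lost without array 1 or 2 of either genotype) while Cebpa was at -0.02. The other Trib1 probe set was higher by 0.69 (adjusted p = 0.0249). Same-numbered arrays of these genotypes deviated together, and with the replicate number as a block Gata3 remained called (adjusted p = 0.0381) while Trib1 (0.0713), Tcf12 (0.132), Etv5 (0.189) and Ets2 (0.201) did not pass. With the Xist covariate Gata3 also remained called (adjusted p = 0.0162), and Trib1 (0.0502), Etv5 (0.0609), Tcf12 (0.0798) and Ets2 (0.0991) did not.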

How the data were processed

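The deposited values are log2 signal intensities, 1 per probe set and array, as read from the values themselves; per the submitters' processing notes RMA and the mouse build mm9 were used, and what each was applied to is not given in the sources used here. No value was missing, array medians lay between 6.65 and 6.84, and no further normalization was done. Gene symbols came from the platform annotation, which gives 34958 probe sets 1 symbol, 932 several and 9211 none.

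All 12 arrays entered 1 fit over every probe set (limma 3.58.1 in R 4.3.3: lmFit, contrasts.fit and eBayes, with 8 residual degrees of freedom), with Benjamini-Hochberg adjustment over all 45101 probe sets, two-sided, called at 0.05. The fitting code was tested on simulated data. The number of arrays limits the precision, since no counts or depth underlie array signals. For list genes the probe set with the highest mean was taken. The genes, lists and marker genes were chosen with earlier results of these data known. Named are all members, the 3 genes of each list with the lowest p against wt/wt, and list genes past the threshold; genes most like a member were to be named only for a called member, and there was none. Deviations from the group means of same-numbered arrays correlated at 0.14 to 0.21 in all 3 pairs of 15lox/15lox and 15lox/1572T, so the numbers were taken to pair these genotypes; in the other mutant comparisons at least 1 pair was at 0.08 or below. Alternatives covered the control arrays, an Xist covariate, eBayes settings, filters, a replicate block and leaving out each array.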

Additional observations from a re-analysis of the deposited data

How the results depend on the processing

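The count of member probe sets called was 0 in 119 of the 120 alternative fits over 6 comparisons. The exception was 15lox/1638N against wt/wt with all 15 arrays, where 2 of 20 were called, beside 3912 of all 45101 probe sets. With 1 array left out in turn the lowest adjusted p of any member was 0.0717. Signs of uncalled member differences changed in 7 of 894 values under the other alternatives and in 67 of 1440 without 1 array, where the largest original size was 0.22.

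Counts over all probe sets moved more, and the cause was not tested. In 15lox/15lox against wt/wt, 674 probe sets were called, against 346 with the Xist covariate, 1951 with all 15 arrays, 438 among probe sets above the median level, and 387 to 753 without 1 array. In 15lox/1638N the 623 became 392 with the Xist covariate, 3912 with all 15 arrays, 1135 with only both groups compared, 1045 with the replicate block over all 15 arrays, and 159 to 882 without 1 array. In 15lox/1572T the 13 became 20 with 1 probe set per gene, 283 with all 15 arrays, 21 with trend and robust, 1 with only both groups, 7 above the median level, 31 with the replicate block, and 7 to 25 without 1 array. In 15lox/15lox against 15lox/1638N the 84 became 52 with the Xist covariate, 220 with all 15 arrays, 133 with trend and robust, 2 with only both groups, 26 above the median level, 39 with the replicate block on the 9 mutant arrays, and 24 to 185 without 1 array. In 15lox/15lox against 15lox/1572T the 451 became 697 with all 15 arrays, 255 with only both groups, 268 above the median level, and 329 to 496 without 1 array. In 15lox/1638N against 15lox/1572T the 77 became 157 with all 15 arrays, 13 with only both groups, 33 with the replicate block, and 39 to 89 without 1 array.

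The mutant arrays share replicate numbers with each other but not with wt/wt arrays 4 to 6. Each mutant array was compared with the arrays of both other mutants, and in 14 of these 18 comparisons the same-numbered array correlated best, a hint of pairing from the data that the labels do not give. With the replicate block 0 member probe sets were called, and 357 probe sets in all in 15lox/15lox against 15lox/1572T. Spib and Ring1 in 15lox/1638N passed with the block over all 15 arrays (adjusted p = 0.0305 and 0.0357). In that fit the block terms absorbed wt/wt arrays 4 to 6, whose numbers no mutant array has. Its differences from wt/wt therefore rest on the other wt/wt arrays, which were not treated as further replicates above. Whether those arrays pair with same-numbered mutant arrays was not tested. The same limit applies to every count against wt/wt with the replicate block. Signal over background per probe set was not used here, so a dim probe set is known only by its percentile.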
